A study of Mus musculus with 6 samples.

Results

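Border-associated macrophages are the resident macrophages of the meninges and of the spaces around brain vessels, and 10 genes that mark them (Mrc1, Folr2, F13a1, Lyve1, Cd163, Ms4a7, Pf4, Cbr2, Stab1 and Clec10a) are described here across the libraries of a mouse embryonic cortex study. They were found by symbol in the single deposited table of the study, which lists 25239 gene symbols, and all 10 were present with a fold change, among 18446 genes that have one. The genes were chosen from known markers and with their values in this contrast in view, so the values below describe them and no test of the contrast is drawn from them. Of the 10, 7 had a mean of at least 10 normalised reads per library.

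RNA was extracted with an RNeasy column kit from cortex of C57BL/6J mouse embryos, a standard inbred strain, labelled wildtype in both groups. The libraries are of polyadenylated RNA. Constructs were introduced by in utero electroporation at E13.5 and the transfected region was collected at E15.5. In 3 libraries, labelled MPPH after the megalencephaly-polymicrogyria-polydactyly-hydrocephalus syndrome, the Breasi-CRISPR method placed the Thr280Ala variant in Ccnd2, which encodes the G1 cyclin D2. The other 3 libraries received GFP only, and the labels name no group edited without the variant, so the variant and the editing procedure cannot be told apart. The labels name no cell sorting, and electroporation reaches only some cells of the region, so each library is a mixture of cells with and without the constructs. Whether the libraries are of separate embryos is not said, so p-values speak only to the spread among these libraries. Ccnd2 itself had a mean of 20340 and a log2 fold change of 0.41 ± 0.29 (SE, adjusted p = 1.00) according to the authors' deposited table. This is a value for the whole gene and cannot tell edited from unedited transcripts.

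Macrophages of the brain arise largely from yolk sac progenitors and depend on signalling through the receptor Csf1r. Microglia settle in the tissue itself, whereas border-associated macrophages stay in the coverings and along vessels, where they take up particles and proteins from the fluid around them. The mannose receptor, scavenger receptors and a hyaluronan receptor on their surface are the usual markers. Among macrophages, genes such as P2ry12, Tmem119 and Sall1 mark microglia. In bulk RNA, fewer cells of a type and less RNA per cell cannot be told apart.

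The deposited table gives 1 line per gene and does not name the group in the numerator of its fold change. Whole reads in each of the 6 libraries were recovered from the deposited means, and the sign of the fold change puts 3 libraries on each side of the contrast. The sides are called positive and negative here, the libraries of a side are numbered by falling size factor (the scaling for depth), and no library is matched to a group label. Size factors ran from 0.85 to 1.11, a narrow range of relative depth; total reads are not stated in the sources used. Cortical identity genes were abundant, with Lhx2 at a mean over the 6 libraries of 10233 and Eomes at 6272 according to the authors' deposited table, and microglial, endothelial and fibroblast genes were also read. The same source gives log2 fold changes of 0.33 ± 0.09 for Lhx2 (SE, adjusted p = 0.055) and 0.34 ± 0.16 for Eomes. Of 10 cortical identity genes, 7 were above 0 and 3 below, with a median of 0.06. Libraries 1 and 2 of the positive side stood apart from the other 4 in genes of several cell types outside the neural lineage, as described below.

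Promoters of the genes are shown because the genes lay on the same side of the contrast and because PU.1 (the product of Spi1) and Maf factors are known regulators of macrophage genes. RefSeq windows on GRCm38.p6, from 250 bases before to 50 bases after an annotated start, were at hand for 8 of the 10 genes in 11 windows, Lyve1 and Clec10a having none. They are written 5′ to 3′ on the strand of the gene, and capitals mark the PU.1 core GAGGAA and the Maf core TGCTGA, or the reverse complement of either. The window of Mrc1 lies at chr2:14229164-14229463 on the plus strand, F13a1 at chr13:37050195-37050494 on the minus strand, Pf4 at chr5:90772185-90772484 on the plus strand, Stab1 at chr14:31168592-31168891 on the minus strand and Folr2 at chr7:101857141-101857440 on the minus strand. The first 4 hold a PU.1 core, Stab1 also holds a Maf core, and the Folr2 window holds a Maf core with no PU.1 core.
Mrc1: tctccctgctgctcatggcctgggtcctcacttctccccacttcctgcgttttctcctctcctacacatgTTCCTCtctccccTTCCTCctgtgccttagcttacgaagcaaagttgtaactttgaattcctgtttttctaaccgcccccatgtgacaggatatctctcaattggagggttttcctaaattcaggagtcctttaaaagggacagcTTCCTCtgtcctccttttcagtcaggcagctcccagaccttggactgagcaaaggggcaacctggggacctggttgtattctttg
F13a1: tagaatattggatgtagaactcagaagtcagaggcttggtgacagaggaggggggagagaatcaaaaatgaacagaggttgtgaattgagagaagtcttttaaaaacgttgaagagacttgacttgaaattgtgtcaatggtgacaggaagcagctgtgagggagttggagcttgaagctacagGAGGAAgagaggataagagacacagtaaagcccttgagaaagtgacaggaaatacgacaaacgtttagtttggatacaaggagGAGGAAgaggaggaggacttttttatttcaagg
Pf4: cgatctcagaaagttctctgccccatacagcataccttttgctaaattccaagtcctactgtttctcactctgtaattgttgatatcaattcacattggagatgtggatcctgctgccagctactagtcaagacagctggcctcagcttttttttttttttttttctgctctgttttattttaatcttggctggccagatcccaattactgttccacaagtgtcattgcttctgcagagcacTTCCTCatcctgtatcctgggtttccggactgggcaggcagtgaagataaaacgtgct
Stab1: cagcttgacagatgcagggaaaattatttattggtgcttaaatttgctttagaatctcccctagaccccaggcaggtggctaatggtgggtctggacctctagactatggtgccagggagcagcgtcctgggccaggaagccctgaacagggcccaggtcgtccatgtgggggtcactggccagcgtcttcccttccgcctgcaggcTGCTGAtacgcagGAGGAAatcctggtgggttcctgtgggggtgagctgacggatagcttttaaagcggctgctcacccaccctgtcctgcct
Folr2: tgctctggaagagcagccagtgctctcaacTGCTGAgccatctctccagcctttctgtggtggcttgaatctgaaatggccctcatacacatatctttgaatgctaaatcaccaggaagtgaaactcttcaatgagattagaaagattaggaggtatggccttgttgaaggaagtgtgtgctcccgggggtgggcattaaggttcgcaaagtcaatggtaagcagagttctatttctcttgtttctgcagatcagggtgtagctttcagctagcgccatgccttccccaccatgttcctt

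The PU.1 core was in 7 of the 11 windows (63.6%), those of Cbr2, F13a1 (both windows), Mrc1, Ms4a7, Pf4 and Stab1, and in 28.3% of all 32851 RefSeq windows. The Maf core was in 4 of 11 (36.4%), those of Cbr2, Folr2 (both windows) and Stab1, and in 19.5% of all windows. As motifs of other factor families, the E-box CACGTG was in 0 of 11 against 7.15% of all windows, the GATA motif AGATAA in 1, that of Pf4, against 11.2%, and the TATA box TATAAA in 0 against 13.6%. Both strands were searched, and PU.1 and Maf cores do not overlap each other in the 5 windows printed above. These matches are letters in a window and not evidence that a factor binds there.

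All 10 genes had a fold change above 0, that is towards the positive side, with a median log2 fold change of 2.78 and a median SE of 0.97. Over all 18446 genes the median was -0.0044 and 48.8% were above 0. At an adjusted p under 0.05 according to the authors' deposited table, the threshold for a call, 1 of the 10 passed (F13a1), where 0.0867% of all genes passed on the positive side. At an adjusted p under 0.1 there were 3 (F13a1, Lyve1 and Pf4) against 0.201% of all genes. At an unadjusted p under 0.05 there were 9, all except Cbr2, against 2.77%. Since the genes were picked with this contrast known, these counts are given beside the background and nothing is read from them.

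The reads behind these folds were not spread over all 3 libraries of the positive side. In each of the 10 genes, libraries 1 and 2 of the positive side held the highest normalised reads and library 3 was the lowest of its side. Library 3 lay within the range of the negative side for 6 genes and above it for 4 (F13a1, Folr2, Lyve1 and Pf4), so only for those 4 did the sides not overlap. Among genes with a mean of 10 to 200 whose reads were resolved, 4010 in all, the sides did not overlap towards the positive side in 7.41%, and libraries 1 and 2 of the positive side ranked highest in 22.7%. Of the 6 members in that range, the sides did not overlap in 4 and those libraries ranked highest in 6.

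**Figure D1:**
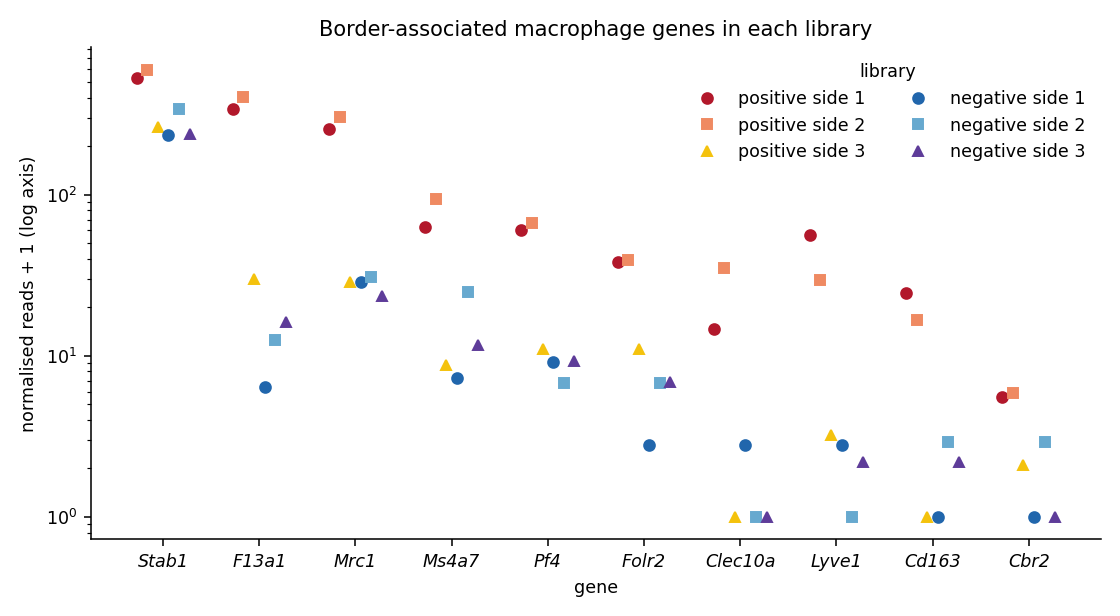
Normalised reads plus 1 (log axis) of each of the 10 genes in each of the 6 libraries, 1 point per library, with red to yellow points for the positive side and blue to violet points for the negative side. Libraries 1 and 2 of the positive side are highest for every gene, and library 3 of that side lies among or just above the negative side.

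Among the receptors that take up sugars and proteins, Mrc1, the macrophage mannose receptor, had 281, 310 and 25 reads in libraries 1 to 3 of the positive side against 31, 31 and 19 on the negative side. After scaling these were 254, 303 and 27.7 against 27.9, 29.8 and 22.4 normalised reads. Libraries 1 and 2 of the positive side were far above the rest and the other 4 were close together, with library 3 inside the range of the negative side. The authors' deposited table gives a log2 fold change of 2.87 ± 0.90 (SE; 95% interval 1.11 to 4.63), a 7.31-fold difference with p = 0.0014 and an adjusted p of 0.23. Mrc1 hosts the microRNA gene Mir511, which is listed at a mean of 0.

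Cd163, the scavenger receptor for haemoglobin bound to haptoglobin, had 26, 16 and 0 reads on the positive side against 0, 2 and 1 on the negative side. Almost all of its reads were in 2 libraries, and the sides overlapped at 0. Its deposited log2 fold change was 3.69 ± 1.51 (SE; 95% interval 0.72 to 6.66; p = 0.015, adjusted p = 0.80, from the authors' deposited table). A library at 0 reads allows a true count of up to 3, which covers counting error only.

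Stab1, which encodes the scavenger receptor stabilin 1, had 588, 608 and 237 reads on the positive side against 261, 354 and 202 on the negative side. It had the highest mean of the 10 (367 normalised reads) and the smallest log2 fold change, 0.77 ± 0.28 (SE; 95% interval 0.23 to 1.32; p = 0.0052, adjusted p = 0.46) according to the authors' deposited table. Library 3 of the positive side, at 262 normalised reads, lay between the negative side's 235 and 340. Stab1 overlaps Nt5dc2 on the opposite strand in 112 exon bases (1.1% of its exon length). Nt5dc2 had a mean of 4103 and a log2 fold change of -0.0052 according to the authors' deposited table, and no source used here states whether counting used strand.

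Lyve1, a hyaluronan receptor also found on lymphatic endothelium, had 61, 29 and 2 reads against 2, 0 and 1. Its sides came close to overlapping, with 2.21 normalised reads in library 3 of the positive side against 1.80 in library 1 of the negative side. The log2 fold change of 4.85 ± 1.27 (SE; 95% interval 2.36 to 7.34; p = 0.00013, adjusted p = 0.071) was the largest of the 10 according to the authors' deposited table. Of the 4 lymphatic and sinusoidal endothelial genes with reads, 2 were above 0 and none had an unadjusted p under 0.05 according to the authors' deposited table. Prox1, a transcription factor listed here as a lymphatic marker, had a log2 fold change of -0.39 ± 0.40. Stab2, the sinusoidal relative of Stab1, had 0.02 ± 0.63. The summed reads of that list ran from 948 to 1221 on the positive side and from 1048 to 1108 on the negative side. Pdpn held between 56.8% and 76.9% of that sum in a library. Without Pdpn the sums were 427, 372 and 219 against 446, 310 and 460. In this mixed tissue reads of Prox1 and Pdpn cannot be assigned to lymphatic cells, and the part of other cells in them was not tested.

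Folr2, the folate receptor beta, had 41, 39 and 9 reads on the positive side against 2, 6 and 5 on the negative side. All 3 libraries of the positive side were above the negative side, the third by the least (9.95 against at most 5.88 normalised reads). The log2 fold change was 2.69 ± 0.78 (SE; 95% interval 1.17 to 4.21; p = 0.00052, adjusted p = 0.16, from the authors' deposited table).

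Clec10a, a galactose-binding lectin that dendritic cells also carry, had 15, 35 and 0 reads against 2, 0 and 0. Of the 52 reads, 50 were in 2 libraries, and library 3 of the positive side was at 0 like 2 of the negative side. The authors' deposited table gives 4.65 ± 1.70 (SE; 95% interval 1.32 to 7.97) on the log2 scale, with p = 0.0062 and an adjusted p of 0.50. Its close relative Mgl2 had 7, 5 and 0 reads on the positive side against 0, 3 and 1 on the negative side. Reads of such near copies may be split between the genes by the counting, so Clec10a is uncertain to that degree.

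Among the secreted products, F13a1, the A subunit of coagulation factor XIII that macrophages and platelets hold, had 377, 411 and 26 reads on the positive side against 6, 12 and 13 on the negative side. The positive side was above the negative side in every library, though library 3, at 28.8 normalised reads, was much nearer to the negative side's highest value of 15.3 than to libraries 1 and 2 at 341 and 402. F13a1 was the called gene of the 10, with a log2 fold change of 4.59 ± 1.05 (SE; 95% interval 2.54 to 6.64), a 24.1-fold difference with p = 1.2e-05 and an adjusted p of 0.024 according to the authors' deposited table.

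Pf4, the chemokine platelet factor 4 (Cxcl4), which platelets and some macrophages make, had 66, 67 and 9 reads against 9, 6 and 7. Its sides did not overlap, with 9.95 normalised reads in the third library of its positive side and at most 8.24 on the negative side. The log2 fold change was 2.62 ± 0.71 (SE; 95% interval 1.23 to 4.01; p = 0.00021, adjusted p = 0.082, from the authors' deposited table).

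F13a1 and Pf4 are also megakaryocyte and platelet genes, so the other genes of that lineage are given beside them. Of 10 megakaryocyte and platelet genes, 7 were above 0, the median log2 fold change was 0.52, and 2 had an unadjusted p under 0.05 according to the authors' deposited table. Their summed normalised reads came to 664, 823 and 687 on the positive side against 672, 520 and 772 on the negative side. Gp1bb held 70.4 to 82.0% of that sum in each library, and without it the sums were 155, 244 and 133 against 131, 96.0 and 139. Both sums overlapped between sides, but 3 of the 10 genes did not, namely Itga2b, Gp5 and Ppbp, where 7.41% of resolved genes with a mean of 10 to 200 did not (Gp5 and Ppbp lie below that range). Ppbp, the platelet chemokine Cxcl7, had 18, 10 and 7 reads against 6, 4 and 3, and Gp5 had 7, 23 and 5 against 4, 0 and 3. The part of platelet RNA in the values of F13a1 and Pf4 was not tested. Gp1bb, a subunit of the platelet receptor for von Willebrand factor, had a log2 fold change of 0.04 ± 0.16, Gp1ba had -0.12 ± 0.30, Tubb1 0.73 ± 0.63 and Itga2b 1.03 ± 0.42, with adjusted p of at least 0.80 according to the authors' deposited table.

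Ms4a7, a membrane protein of the tetraspanning MS4A family, had 69, 95 and 7 reads on the positive side against 7, 25 and 9 on the negative side. Library 3 of the positive side was within the negative side, and library 2 of the negative side (24.0 normalised reads) was above it (7.74). The log2 fold change was 2.00 ± 0.77 (SE; 95% interval 0.49 to 3.51; p = 0.0095, adjusted p = 0.63, from the authors' deposited table). Its relatives Ms4a4a and Ms4a6d had 1.96 ± 0.86 and 0.96 ± 0.67 on the same scale according to the authors' deposited table.

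Cbr2, a carbonyl reductase, had 5, 5 and 1 reads against 0, 2 and 0, the fewest of the 10. Its log2 fold change of 2.43 ± 1.87 (SE; p = 0.19, adjusted p = 1.0, from the authors' deposited table) had a 95% interval from -1.23 to 6.09. The other carbonyl reductase Cbr1 had a mean of 1554 and a log2 fold change of 0.12 ± 0.08 according to the authors' deposited table.

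Summed over libraries and scaled for depth, the reads of the positive side exceeded those of the negative side by ratios that counting error alone bounds as follows. The ratio was 30.4 for Lyve1 (exact 95% interval 10.1 to 150), 26.0 for F13a1 (18.2 to 38.5), 24.8 for Clec10a (6.51 to 210) and 13.9 for Cd163 (4.43 to 70.0). It was 7.53 for Mrc1 (5.97 to 9.62), 6.78 for Folr2 (3.77 to 13.2), 6.39 for Pf4 (4.06 to 10.5) and 5.45 for Cbr2 (1.19 to 50.6). Ms4a7 had 4.13 (2.92 to 5.96) and Stab1 1.74 (1.59 to 1.90). These intervals are narrower than those of the deposited fold changes for the abundant genes because they leave out the spread between libraries.

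**Figure D2:**
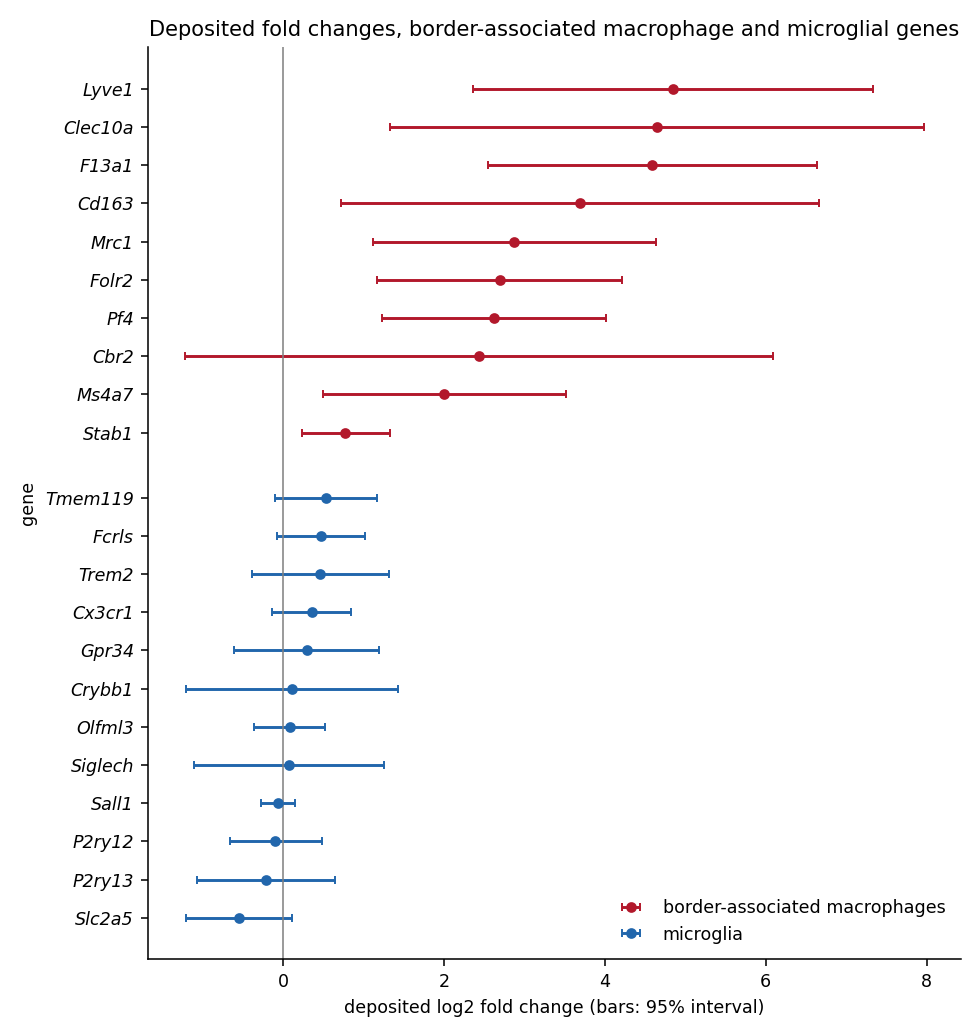
Log2 fold change of each gene according to the authors' deposited table (horizontal axis, points) with its 95% interval (bars), for the 10 border-associated macrophage genes in red and 12 of the 13 microglial genes in blue. The red points run from 0.77 (Stab1) to 4.85 (Lyve1), and the blue points lie on both sides of 0.

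Single libraries weighed on several of these values, taken as the log2 ratio of side means of normalised reads plus 1. Without library 2 of the positive side, Clec10a went from 3.40 to 2.28 and Ms4a7 from 1.92 to 1.30. Leaving out library 1 of that side instead moved Lyve1 from 3.89 to 3.03 and Cd163 from 2.79 to 2.12. On the negative side, the absence of library 2 moved Ms4a7 to 2.55 and Cbr2 from 1.46 to 2.17, and that of library 1 moved Clec10a to 4.08. No other single library moved any of the 10 by over 1.5 times, and F13a1 stayed between 3.98 and 4.99.

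Levels of different genes were compared per kilobase of exon, as the mean of normalised reads over the 6 libraries. Pf4 (36.4 per kilobase) and Stab1 (35.6) were highest, followed by F13a1 (19.9), Mrc1 (17.4), Folr2 (10.6), Ms4a7 (7.63), Lyve1 (5.06), Clec10a (2.85), Cbr2 (1.56) and Cd163 (1.29). Neighbours in this order do not differ beyond their spread, since their ranges over libraries overlap. The order was not the same in each library. In library 1 of the positive side Pf4 (82.7 per kilobase) was above Stab1 (51.7) and F13a1 (50.6), whereas on the negative side Stab1 (22.8 to 33.0) was above Pf4 (7.99 to 11.4) and F13a1 (0.80 to 2.27) in every library.

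The 2 libraries with most reads also differed from each other. From the size factors alone, 48.0% of a gene's reads in libraries 1 and 2 of the positive side would lie in library 2. For Lyve1 the share was 32.2% (exact 95% binomial interval 22.8 to 42.9%), below it. For 4 genes the interval lay above it, with 70.0% for Clec10a (55.4 to 82.1%), 57.9% for Ms4a7 (50 to 65.6%), 52.5% for Mrc1 (48.3 to 56.5%) and 52.2% for F13a1 (48.6 to 55.7%). The other 5 intervals included the expected share. On counting error alone, with no adjustment for 10 intervals, the genes did not share 1 ratio between these libraries.

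**Figure D3:**
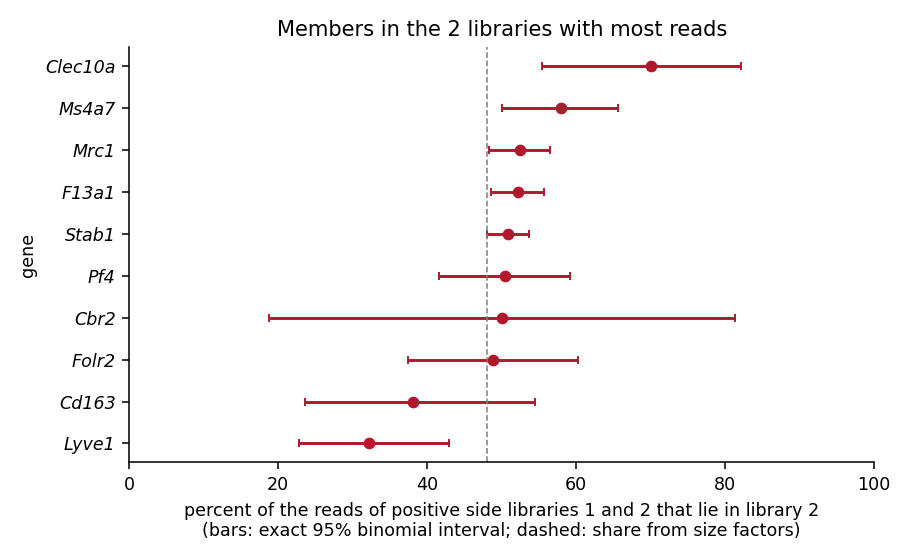
Percent of the reads in libraries 1 and 2 of the positive side that lie in library 2 (horizontal axis), for each of the 10 genes, with exact 95% binomial intervals as bars and the share given by the size factors as a dashed line at 48.0%. Lyve1 lies to the left of the line, and Clec10a, Ms4a7, Mrc1 and F13a1 lie to the right.

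Summed, the 10 genes had 1382, 1580 and 350 normalised reads in libraries 1 to 3 of the positive side against 288, 420 and 302 on the negative side. Side means differed 3.28-fold (1.71 on the log2 scale, with a spread between libraries within sides of 0.88, SD of log2 values). Library 3 of the positive side was again within the negative side. Stab1 held much of the sum, 38.5% and 37.6% of it in libraries 1 and 2 of the positive side, 75% in library 3, and 78.6 to 81.6% on the negative side. With Stab1 left out the sums were 850, 985 and 87.4 against 53.0, 80.6 and 64.7, a 9.70-fold difference, and library 3 was then just above the negative side.

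Genes shared by all macrophages, among them Csf1r, Ptprc, Spi1 and the complement C1q genes, served to ask how the 10 compared with macrophage RNA as such. All 20 such genes were above 0, with a median log2 fold change of 0.69, 3 at an unadjusted p under 0.05 and none called according to the authors' deposited table. Fcer1g, an Fc receptor subunit, had 1.41 ± 0.45 (adjusted p = 0.25) and Adgre1, which encodes F4/80, had 0.93 ± 0.38 (adjusted p = 0.80) according to the authors' deposited table. Their summed reads, over 19 genes with resolved reads, were 5667, 6604 and 2226 on the positive side against 1964, 3565 and 3043 on the negative side.

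Per 100 reads of those genes, the 10 border-associated genes had 24.4, 23.9 and 15.7 reads on the positive side against 14.6, 11.8 and 9.94 on the negative side. All 3 libraries of the positive side were above the negative side, the third by little (15.7 against 14.6). Most of that ratio's difference lay outside Stab1, which had 9.38, 9.01 and 11.8 against 11.9, 9.53 and 7.81 and overlapped between sides. F13a1 had 6.01, 6.09 and 1.29 against 0.274, 0.323 and 0.503, and Mrc1 4.48, 4.59 and 1.24 against 1.42, 0.835 and 0.735. Folr2 had 0.654, 0.578 and 0.447 against 0.0915, 0.162 and 0.193, and its 3 libraries of the positive side were closer to each other than those of F13a1 or Mrc1.

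**Figure D4:**
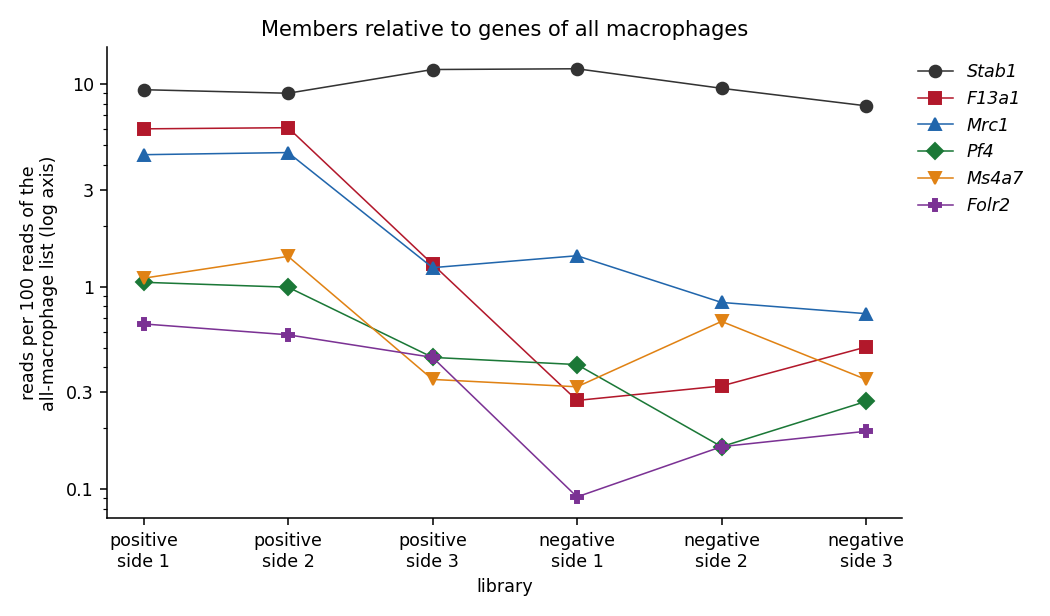
Reads of 6 border-associated macrophage genes per 100 reads of genes of all macrophages (log axis), in each of the 6 libraries along the horizontal axis. Stab1 is nearly level, from 7.81 to 11.9, while F13a1 goes from 6.01 in library 1 of the positive side to 0.274 in library 1 of the negative side.

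Of 13 microglial genes, which mark the macrophages of the tissue itself, 8 were above 0, the median log2 fold change was 0.08 and none had an unadjusted p under 0.05 according to the authors' deposited table. Fcrls had 0.47 ± 0.28, Tmem119 0.53 ± 0.32 and Slc2a5 -0.55 ± 0.34 according to the authors' deposited table. Sall1 was among the 5 below 0, with -0.07 ± 0.11 and a mean of 1665 against 89 for Tmem119, from the same source. In this mixed tissue its reads cannot be assigned to microglia, and the part of other cells in them was not tested. Reads per library were resolved for 12 of the 13, without Sall1, whose mean of 1665 was too high for the search and is close to that of the other 12 together. The summed reads of these 12, 2186, 1996 and 1396 against 1388, 1941 and 1830, overlapped between sides. Per 100 reads of these 12 microglial genes the 10 border-associated genes had 63.2, 79.2 and 25.0 against 20.7, 21.7 and 16.5, so that library 3 of the positive side was just above the negative side.

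A second list of 23 genes reported in border-associated macrophages was counted, of which 19 had a fold change. Of these 18 were above 0, with a median log2 fold change of 1.34, 9 at an unadjusted p under 0.05 and 1 called. The called gene was Ccr1, a chemokine receptor, with 47, 77 and 13 reads against 5, 7 and 4 and a log2 fold change of 3.05 ± 0.71 (SE, adjusted p = 0.024) according to the authors' deposited table. Siglec1, the sialic acid receptor sialoadhesin, had 65, 149 and 9 reads against 4, 24 and 11 (2.44 ± 0.81, adjusted p = 0.30, from the authors' deposited table). Ms4a6b had 2.39 ± 0.68 (adjusted p = 0.15) and Lyz2, lysozyme, 1.23 ± 0.38 (adjusted p = 0.22) according to the authors' deposited table. The list's sum was 2908, 3925 and 1485 against 1740, 1836 and 1839, of which the transcription factor gene Maf held between 29.7% and 54.2% in a library. Without Maf the sum was 2043, 2466 and 912 against 796, 1002 and 867, with library 3 of the positive side within the negative side.

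Of 10 growth factors and regulators of macrophages, 9 were above 0, with a median log2 fold change of 0.50 and none called. Il34, a ligand of Csf1r, had 1.15 ± 0.50 (adjusted p = 0.97), Tgfb1 0.35 ± 0.20, Spi1, which encodes PU.1, 0.77 ± 0.43 and Irf8 0.69 ± 0.40 (adjusted p = 1.0 for these 3) according to the authors' deposited table. Spi1 had 150, 151 and 45 reads on the positive side against 42, 83 and 67 on the negative side, the same libraries 1 and 2 being highest as for the border-associated genes.

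Genes of some other cell types were highest in the same libraries as the border-associated genes, and their values are set beside them. All 17 genes of meningeal fibroblasts were above 0, with a median log2 fold change of 3.84, and 8 were called. Their summed reads were 9122, 11781 and 1387 on the positive side against 1227, 1065 and 1224 on the negative side, so that libraries 1 and 2 were again the highest. Col1a1, a collagen chain, had 1761, 2192 and 57 reads against 38, 30 and 40 (5.11 ± 1.16, adjusted p = 0.024) and Slc13a4, a sulphate transporter, 88, 87 and 2 against 1, 1 and 1 (5.80 ± 1.21, adjusted p = 0.010) according to the authors' deposited table. Per 100 fibroblast reads, the border-associated genes other than Stab1 had 9.32, 8.36 and 6.30 against 4.32, 7.57 and 5.29, ranges that overlapped. None of the fibroblast genes was at 0 over a whole side. The part of meningeal tissue in the result for the border-associated genes was not tested.

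Blood-borne myeloid cells could share some of these genes. All 8 monocyte genes were above 0, though only 3 of them had a mean of at least 10 and the others had few reads. Their summed reads were 78.6, 193 and 23.2 against 11.7, 20.2 and 27.1, and Ccr2 had 21, 29 and 6 reads against 2, 5 and 4. All 9 neutrophil genes with reads were above 0, of which 4 had a mean of at least 10, with sums of 132, 461 and 46.5 against 28.8, 41.3 and 81.2. Csf3r held between 10.6% and 90.7% of that sum in a library. Without Csf3r the sums were 75, 412 and 23.2 against 8.99, 3.84 and 31.8. Mpo, the granule enzyme myeloperoxidase, had 16, 116 and 0 reads on the positive side, with 0 in each library of the negative side, and Elane had its 29 reads in library 2. The monocyte and neutrophil sums were higher in library 2 than in library 1 of the positive side by a wider margin than the border-associated sum. Their part in the result was not tested.

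**Figure D5:**
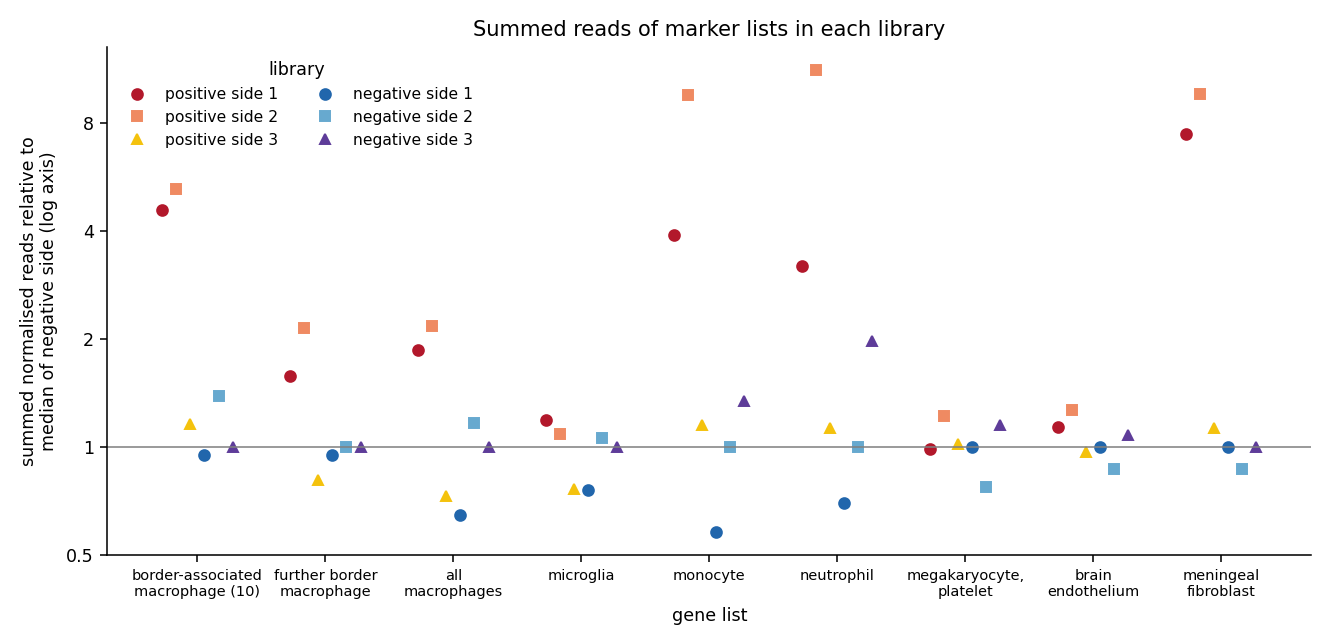
Summed normalised reads of 9 gene lists in each library, relative to the median of the negative side (log axis, line at 1), with 1 point per library. In libraries 1 and 2 of the positive side the 10 border-associated genes stand at 4.57 and 5.23, meningeal fibroblast genes at 7.45 and 9.63, and microglial genes at 1.19 and 1.09. Sall1 and Cldn5 are not in the sums of their lists.

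Antigen-presenting and dendritic cell genes, a possible source of Clec10a, had few reads. Of 8 with reads, 7 were above 0, with sums of 75.9, 83.2 and 24.3 against 32.3, 36.5 and 47.1. Ciita, the 1 gene of these with a mean of at least 10, had 21, 7 and 10 reads against 12, 19 and 16. It was below 0, with a log2 fold change of -0.36 ± 0.65 according to the authors' deposited table. Cd74, with a mean of 9.07, had 15, 32 and 2 reads against 6, 2 and 0. Mast cell genes gave at most 6.85 normalised reads in a library. Brain endothelial genes, which mark the vessels along which perivascular macrophages lie, summed over 9 of 10 genes (without Cldn5, whose mean of 1432 was too high for the search) to 4135, 4623 and 3522 against 3635, 3163 and 3919 reads, and Cdh5 stood at 0.35 ± 0.16 on the log2 scale (adjusted p = 1.0, from the authors' deposited table). Of 8 erythroid genes, taken as a sign of blood, 4 were listed at a mean of 0, so their sum covers only part of the list. The 4 with reads had 517, 585 and 449 against 511, 456 and 579, mostly reads of Alas2. Choroid plexus genes, 4 of 8 above 0 and 4 below, summed to 79.5, 77.3 and 13.3 against 23.4, 26.9 and 36.5. Aqp1 held 68.2% and 64.6% of that sum in libraries 1 and 2 of the positive side. Without Aqp1 the sums were 25.3, 27.4 and 5.53 against 16.2, 12.5 and 34.1. The antigen-presenting, endothelial, erythroid and choroid plexus sums all overlapped between sides.

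Over the 6 libraries, the genes whose reads were most like the sum of the 10 were sought by Pearson correlation of log2(normalised reads + 1). The candidates were 3937 genes outside all lists with resolved reads and a mean of 10 to 200. The 8 closest were Ptpn6 (r = 0.9988), Tgfbr3 (0.9942), Plekhg1 (0.9884), Elf4 (0.9883), Aebp1 (0.9863), Fzd10 (0.9857), Cp (0.9852) and Gjb2 (0.9850). Ptpn6, which encodes the phosphatase SHP-1 of blood cells, had 115, 113 and 37 reads against 43, 49 and 33. Of the 3937 genes, 89 reached r above 0.95. The members themselves ran from 0.905 (Lyve1) to 0.990 (Mrc1), and Stab1, which held 75% of the sum in library 3 of the positive side and 78.6 to 81.6% on the negative side, had 0.985. All points share 6 libraries of which 2 stand apart, so these values only rank likeness.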

How the data were processed

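The single file used was the authors' own comparison of the 6 libraries. Per the submitters' processing notes, cutadapt, featureCounts, DESeq2 and the build mm10 were used by the authors; aligner, annotation, strand setting and versions are not given in the sources used. Per the file headers, each gene has a base mean (a signal: the mean of counts divided by size factors), a log2 fold change and its standard error on the log2 scale, a Wald statistic (a score), a p-value and an adjusted p-value. The fold changes were not refitted here as a test, and 95% intervals are 1.96 SE. The table has 0 unused columns of per-sample values.

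Whole reads were recovered from the deposited base means. The 739 genes with a single read give 6 size factors. Sets of 6 whole numbers were then searched that give the base mean within a relative tolerance of 8e-15. They were resolved for 4087 of 4088 genes searched, 2449 from the mean alone and 1638 with the fold change as well. All 2449 also gave the deposited fold change within 1e-10 when the authors' model was computed from them. The search was tested on simulated data, where it found the reads of 400 of 400 genes.

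The members and lists were chosen with earlier results of these data known. Of each list up to 4 genes with the smallest deposited p were named, with means of at least 10 first, together with all members, Ccnd2 and the 8 genes most like the members. A gene that this rule takes in is counted in its list but not reported here by name. Mir511, Nt5dc2, Mgl2, Elane, Maf, Gp5, Ppbp, Sall1 and Cldn5 were named after their values were seen, as overlapping, related or single-library genes or for their part in a sum. Genes of the lists were searched up to a mean of 1200. Exon lengths are from GENCODE M21. Intervals on reads are exact and cover counting error only. Python 3.11.15, numpy 2.4.6, pandas 2.3.3, scipy 1.17.1, numba 0.67.0 and matplotlib 3.10.9 were used.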

Additional observations from a re-analysis of the deposited data

How the results depend on the processing

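The direction of the 10 border-associated macrophage genes, their summed reads and their ratios to other macrophage reads was the same under every alternative run. In the authors' deposited table, 1 of the 10 was called, 3 at an adjusted p under 0.1 and 9 at an unadjusted p under 0.05. The median log2 fold change of 2.78 became 1.70 as a mean weighted by 1/SE squared, which gives most weight to Stab1, the gene with the smallest SE. Leaving out Stab1 moved the log2 ratio of side means from 1.71 to 3.28 for the sum, and, as alternatives chosen after seeing the data, from 0.82 to 2.26 per read of all macrophages and from 1.51 to 3.04 per read of 12 microglial genes. Leaving out each library in turn gave 1.36 to 2.14, 0.69 to 0.99 and 1.17 to 1.86 for these 3 ratios. Reads not divided by size factors gave 1.77 for the sum. No paired analysis was possible because the deposited table has no columns per labelled sample, and no test per gene was refitted. Genes with few reads, such as Cbr2, Cd163 and Clec10a, are limited by counting error.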
